A study of Mus musculus with 4 samples.

Results

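Untreated primary chondrocytes of Rela fl/fl mice were profiled on a single array, and the transcripts that this culture contained are described here by the strength of their signal. The members are the probes for transcripts whose processed signal the scanner software marked as well above background, ordered by that signal, with no comparison between conditions in the rule. They numbered 28343 of 55660 probes (50.9%). Named through RefSeq accessions, they gave 13809 of 20663 genes, and with transcripts that carry no gene name 21588 of 37065.

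The study asked which genes the NF-κB subunit Rela controls when chondrocytes meet tumour necrosis factor (TNF). The cells came from C57BL/6J mice aged 6 days, and per the methods chondrocytes of this age were articular cells released by collagenase D and grown in DMEM with FBS. There were 4 arrays, 1 each for untreated Rela fl/fl cells, the same cells given TNF at 10 ng ml−1, and Prrx1-Cre; Rela fl/fl cells (cKO) in either condition, all cultured for 3 days in these conditions. The array described here is the Rela fl/fl culture without TNF, in which the floxed alleles are present and no Cre is, and the other 3 arrays serve only as values beside it. Prrx1-Cre acts in limb mesenchyme and its descendants. Rela itself read 28.4 times the 75th percentile of the array described here, 34.9 with TNF, and 34.0 and 40.2 on the untreated and TNF-treated arrays labelled cKO. Its signal was not lower there, so these arrays are called by their label. Where the probe lies relative to the floxed exons is not given in the sources used here, so this signal does not show whether the deletion took place. No array has a replicate, so no test was run, and every value below is a description of 1 culture.

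Chondrocytes surround themselves with a matrix in which fibrils of type II collagen, with types IX and XI, hold a swollen gel of aggrecan and hyaluronan, and the factor Sox9 with its partners Sox5 and Sox6 drives the genes for it. At the end of their life in the growth plate, chondrocytes enlarge, become hypertrophic and turn to type X collagen and mineralizing genes. Around the cartilage lies the perichondrium, a fibrous sheath rich in type I collagen, and chondrocytes kept in flat culture are known to drift towards such a fibroblast-like state.

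Signals of members ran from 32.2 to 401537 intensity units with a median of 510, and no transcript spot was saturated. The limit of detection was soft. Among probes with a single spot, the lowest signal marked well above background was 32.2, the highest signal not so marked was 44.8, and 1053 of the 2217 probes in between passed. Probes spotted 10 times varied within this array by a pooled SD of 0.10 on the log2 scale (173 probes), which measures spotting and hybridization and not the spread between cultures. Of the members, 94.9% were well above background on all 4 arrays, while 805 were on this array only. Some spots were bright on 1 array alone and lay in groups. A spot with at least 3 such neighbours close by is said to lie in a patch, and 10.7% of the spots of this array did. A patch held a spot of 86.3% of the members seen on this array only, against 11.4% of those seen on all 4. Probes differ in how well they bind, so a rank or a percentile below orders the signals of probes and is not a ratio of RNA amounts between genes. In a bulk culture, fewer cells of a type and less RNA per cell cannot be told apart.

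The brightest 100 members did not hold most of the signal, but the brightest 1000 of the 28343 did. A matrix gene stood at the head of the order. The brightest 10 members held 1.90% of the summed signal of all members, the brightest 100 held 13.7% and the brightest 1000 held 58.4%. The gene at rank 1 was Sparc, which encodes osteonectin, a matrix protein that binds collagen, with 401537 intensity units. Its other probe read 56694, so its place at the top rests on 1 of its 2 probes, and the bright one had its spot in a patch. The gene at rank 2 was Col2a1, the type II collagen of cartilage, with 364913 intensity units from a single probe. The cell-adhesive glycoprotein gene Fn1 (fibronectin) followed at rank 12 with 295241, Comp, which encodes the pentameric cartilage oligomeric matrix protein, at rank 16 with 281780, and Timp2, an inhibitor of matrix metalloproteinases, at rank 18 with 276470. The other probe of Timp2 read 46136, and with the mean over its probes Timp2 stood at rank 78.

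Many of the other genes among the 30 of highest signal serve protein synthesis and housekeeping. Ribosomal proteins took 9 places, among them Rps20, Rps14, Rplp0, Rpl41, Rpl37a, Rps12, Rps10 and Rpl10. Tpt1, the translationally controlled tumour protein, stood at rank 6 with 328684 intensity units, and Rack1, a scaffold on the small ribosomal subunit, at rank 22 with 261894. H19, an imprinted noncoding RNA abundant in fetal tissues, stood at rank 7 with 315602, and its 5 probes were all well above background. Ppia, a peptidyl-prolyl isomerase, Ftl1, the ferritin light chain, and Gapdh, a glycolytic enzyme, stood at ranks 19, 23 and 25. Exosc2, a subunit of the RNA exosome, read by 1 probe, stood at rank 5. Each of the 30 genes was well above background on all 4 arrays with a range over the arrays of 0.04 to 0.36 on the log2 scale, the widest being H19.

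Other probes of the same genes did not always bear out these ranks. Among the 30 genes, 19 had several probes, and in 8 of these the next probe was dimmer by more than 3 on the log2 scale. For Slc10a1, known as a bile acid transporter of liver, the bright probe read 286974 and the other 8.19, which was not well above background. For Elk1, an ETS transcription factor, the probes read 251329 and 106. For Kctd14 they read 338432 and 432, with the third dimmer still. The others were Glrx2, a mitochondrial glutaredoxin, with a gap of 6.35 on the log2 scale, Med16, a Mediator subunit, with 6.16, Zfp628, a zinc finger protein, with 8.50, Ttc38 with 8.99 and 2610028H24Rik with 9.21. Milr1, a receptor gene named from mast cells, had a gap of 1.82. When a gene was given the mean of its probes, 14 of the 30 stayed among the first 30. Col2a1 then stood at rank 1, Fn1 at rank 5 and Comp at rank 6, while Sparc fell to rank 49, Slc10a1 to 4941 and Kctd14 to 4418. The files do not show which transcripts a bright probe bound, and such genes are best read as bright probes. Among all named members with several probes, 36.1% of 4468 had a gap of this size.

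**Figure D1:**
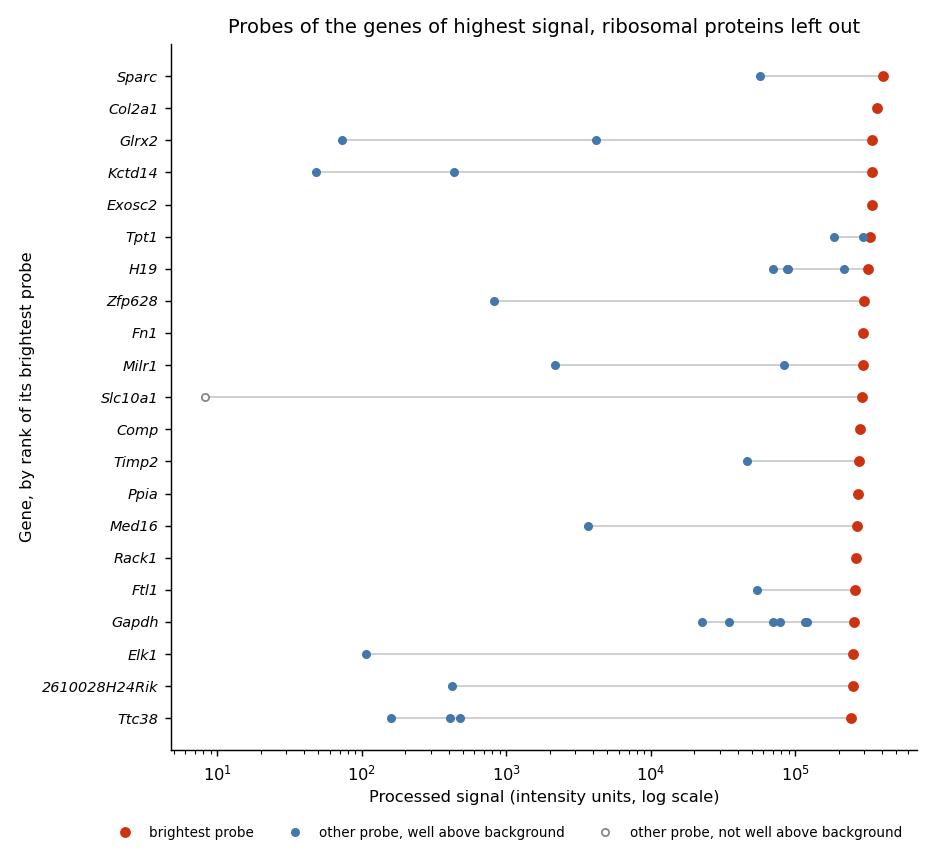
Signal of every probe of 21 of the 30 named genes of highest signal, with ribosomal proteins left out, on the array of untreated Rela fl/fl cells, in intensity units on a log scale. Red points are the brightest probe of each gene, blue points other probes well above background and open points probes that are not; 8 genes have their next probe more than 3 log2 units below the brightest, and for Slc10a1 it is at 8.19.

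By class, ribosomal proteins were the largest named group at the top of the order. They were 34 of the 100 genes of highest signal, although they made up 0.479% of the named genes, and 81 of the 99 measured were among the first 1000. Collagens and other secreted matrix genes of the lists took 2 and 5 of the 100 places, which were held by Col2a1 and Col1a2 and by Sparc, Fn1, Comp, Pcolce and Ucma. Because the second class was drawn from gene lists, secreted proteins outside it, such as Mgp and Thbs1, are not counted in it. Glycolytic enzymes took 4 places, with Gapdh, Ldha, Aldoa and Eno1, and actins took 2, with Actb and Actg1. Genes of mitochondrial respiration were less prominent in the first 100, with 1 place, but 50 of 98 were within the first 1000. With unnamed transcripts ranked too, ribosomal proteins held 20 of 100 places.

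**Figure D2:**
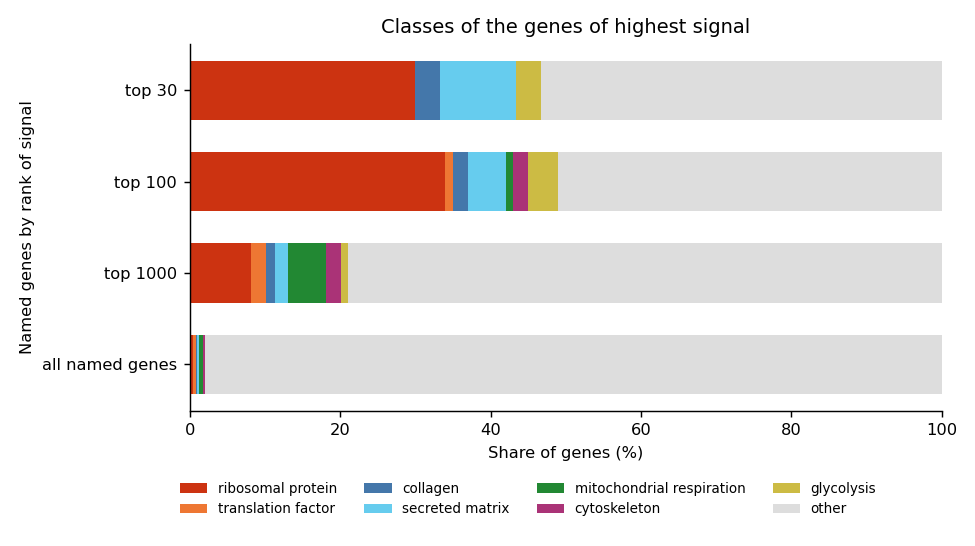
Share of gene classes, in percent, among the 30, 100 and 1000 named genes of highest signal and among all 20663 named genes on the array of untreated Rela fl/fl cells. Ribosomal proteins make up 34 of the first 100 genes and 0.479% of all named genes.

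The label primary chondrocyte was first set against 7 defining markers, and all 7 were well above background on all 4 arrays, compared with 66.8% of all named genes on this array, the share against which every count of detected genes below is to be read. Their order by signal was Col2a1, Comp, Col1a1, Acan, Sox9, Col10a1 and Csf1r. Col2a1 read 597 times the 75th percentile here, against 610 in Rela fl/fl cells with TNF and 584 and 608 on the untreated and TNF-treated arrays labelled cKO. All 4 arrays thus lay within 0.06 on the log2 scale. Comp read 461 here and 456 with TNF, and 384.5 and 372 on the arrays labelled cKO. Its signals fell into a higher pair and a lower pair by label. Acan, the aggrecan core protein, was at rank 250 (61399 intensity units), and read 100.5 here, 81.9 with TNF, and 66.02 and 58.8 on the arrays labelled cKO. The array described here was the highest of the 4 for Acan. Sox9, at rank 1874, was spotted 10 times, and the 9 spots kept read 8177 to 9005 intensity units with an SD of 0.06 on the log2 scale. Its scaled signal was 14.2 here, 13.6 with TNF, and 12.7 and 12.4 on the arrays labelled cKO, a narrow range.

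The remaining 3 defining markers stand for fibroblast-like cells, hypertrophic chondrocytes and macrophages. Col1a1, the main chain of type I collagen, stood at rank 141 with 99192 intensity units and read 162 here, 164.2 with TNF, and 168 and 163 on the arrays labelled cKO. It was thus bright and almost level over the arrays. Col10a1, the type X collagen of hypertrophic chondrocytes, stood at rank 2920 with 5034 intensity units and read 8.24 here, 7.27 with TNF, and 14.6 and 14.2 on the arrays labelled cKO. Both arrays labelled cKO were higher. Csf1r, the receptor for the macrophage growth factor, stood at rank 5389 of the named members with 1877 intensity units, and read 3.07 here, 2.86 with TNF, and 2.80 and 2.95 on the arrays labelled cKO. Its 3 probes read 1877, 848 and 41.5, all well above background on this array, so its percentile of 73.9 became 59.3 with the mean over probes.

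**Figure D3:**
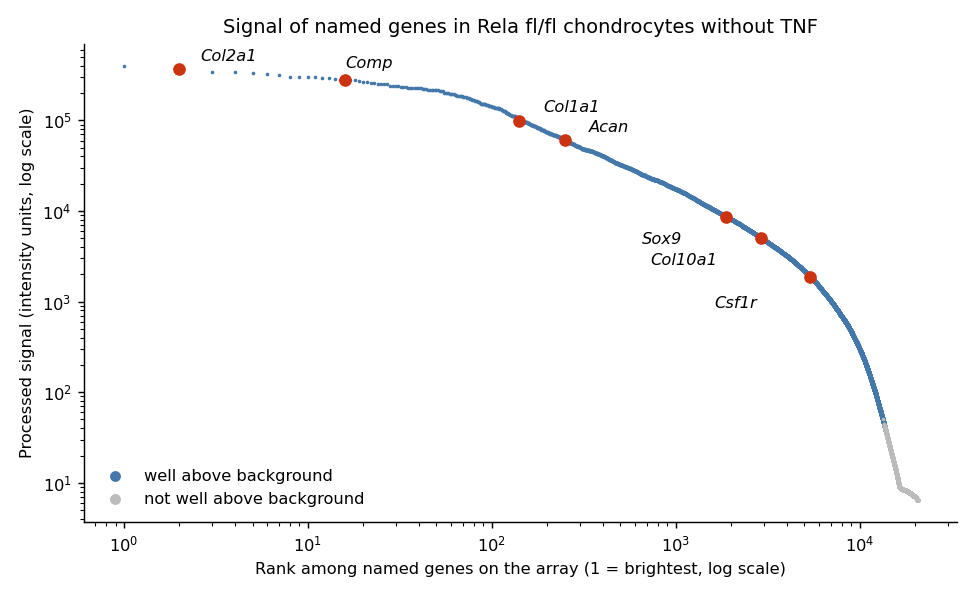
Processed signal (intensity units) against rank for 20663 named genes on the array of untreated Rela fl/fl cells, both on log scales, with blue points well above background and grey points not. Red points are the 7 defining markers, from Col2a1 at rank 2 to Csf1r at rank 5389.

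Cartilage matrix genes were the brightest of the 18 lists of cell type markers. Of 23 genes in the list, 22 were read, and all 22 were well above background, with a median percentile of 98.2 among all named genes, where 50 is the middle. After Col2a1 and Comp came Ucma, a small secreted protein of unmineralized cartilage, at rank 67. The partner collagens were bright, with Col9a1 at percentile 99.3, Col11a1 at 98.9, Col9a2 at 98.6 and Col11a2 at 97.8. The place of Col9a1 rests on 1 of its 2 probes, which read 98898 and 1870 intensity units, and the bright one had its spot in a patch. Genes of the aggrecan aggregate were less even, since Acan stood at 98.8, the link protein gene Hapln1 at 94.6, and the matrilin genes Matn1 to Matn4, whose proteins bridge fibrils and aggrecan, between 98.7 for Matn1 and 75.7 for Matn2. Chad, which encodes chondroadherin, was the dimmest of the list at 59.6, and Prelp was not read under that name. Of the 22 read, 17 stood above percentile 90.

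The transcription factors of the chondrocyte were dimmer than the matrix they serve. All 8 read were well above background, at a median percentile of 70.3. Sox5 stood at 91.8 and Sox9 at 90.9, although the other probe of Sox5 read 59.9 intensity units against 9693. Trps1, a GATA-type repressor of growth plate cartilage, stood at 87.6. Sox6, at 63.6, read 1.34 here and 0.48 to 0.62 on the other arrays, and its spot lay in a patch, as did the bright spot of Foxa2, with 1.79 here against 0.38 to 0.51. The signals of these 2 genes on this array are therefore the less certain ones, and the part of the patches in them was not tested. Nkx3-2, a repressor that favours early cartilage, and Foxa3 were the dimmest, at 42.9 and 39.2.

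Of 7 markers of the articular surface, 6 were well above background (against 66.8% of all named genes), with a median percentile of 82.1. Creb5, a transcription factor needed for lubricin in joint cartilage, stood at 97.8, the secreted Wnt modulator gene Dkk3 at 97.2 and Abi3bp, a matrix protein, at 85.5. Prg4, which encodes lubricin, the lubricant of the joint surface, stood at 81.6 and read 5.65 here, 10.8 with TNF, and 6.18 and 7.41 on the arrays labelled cKO, the array described here being the lowest. Its other probe read 45.7 intensity units against 3450. Erg, an ETS factor of articular cells, was dim at 43.6 with its spot in a patch, and Cilp, a protein of the cartilage intermediate layer, was not well above background with 8.35 intensity units.

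Genes that make and modify this matrix were all detected. All 19 genes of collagen processing and secretion were well above background, at a median percentile of 91.7. Beside Sparc, Pcolce, an enhancer of procollagen cleavage, stood at rank 36 and Serpinh1, the collagen chaperone HSP47, at percentile 99.3, while Sec23a, a coat protein of secretory vesicles, and Creb3l2, a factor that drives secretory genes in chondrocytes, closed the list at 75.7 and 73.1. All 17 genes of sulfated glycosaminoglycan synthesis were well above background, at a median percentile of 77.3. Papss2, which makes the activated sulfate used on cartilage proteoglycans, led them at 98.9, followed by Chpf, a chondroitin polymerizing factor, at 95.9 and Ugdh, which supplies UDP-glucuronate, at 94.6. The sulfotransferase gene Chst3, at 54.5, and the xylosyltransferase gene Xylt1, at 49.3, which starts the sugar chains, were the dimmest.

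Small leucine-rich proteoglycans, which coat collagen fibrils, were also bright. Of 10 read, 9 were well above background with a median percentile of 93.5. Dcn (decorin) stood at 99.3, Ogn (osteoglycin) at 98.7 and Fmod (fibromodulin) at 98.7. Aspn (asporin) stood at 52.1, and Kera, the keratocan of cornea and tendon, was not well above background with 8.40 intensity units. Chad and Epyc (epiphycan) belong to this list as well as to that of cartilage matrix.

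All 18 genes of glycolysis and hypoxia were well above background at a median percentile of 98.2, which was 95.7 with the mean over the probes of a gene. Gapdh, Ldha, which turns pyruvate to lactate, and Aldoa stood at ranks 25, 57 and 78, and the dimmest were Hk2, a hexokinase, at percentile 69.3 and Ankrd37, a hypoxia-responsive gene, at 52.6. Cartilage has no vessels and its cells are known to live largely by glycolysis.

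Matrix-degrading genes were read beside their inhibitors. Of 18 genes of matrix turnover, 17 were well above background at a median percentile of 91.1. Timp2, Timp3 and the lysosomal protease gene Ctsd led at ranks 18, 74 and 91. The collagenase gene Mmp13 stood at 82.4, the aggrecanase genes Adamts5 and Adamts4 at 50.6 and 47.6, and the stromelysin gene Mmp3 at 54.2. Mmp19 was the dimmest member at 40.8, with Mmp9, a gelatinase of osteoclasts and leukocytes, not well above background at 7.495 intensity units. Mmp3 read 0.62 here and 15.3 in Rela fl/fl cells with TNF, with 0.25 and 1.47 on the arrays labelled cKO, so both untreated arrays were below both treated ones.

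Hypertrophic markers ranged from dim to bright. Of 12 genes, 11 were well above background (against 66.8% of all named genes), with none of these spots in a patch, at a median percentile of 74.6. Spp1, which encodes osteopontin, stood at 94.3, Col10a1 at 85.9 and Mmp13 at 82.4. Spp1 read 24.1 here, 42.3 with TNF, and 29.2 and 54.7 on the arrays labelled cKO, and this array was the lowest. Ibsp, the bone sialoprotein gene, at 77.8, read 4.19 here, 3.50 with TNF, and 9.16 and 6.86 on the arrays labelled cKO. Both arrays labelled cKO were thus higher than either Rela fl/fl array. Ihh, the signal of prehypertrophic cells, was dim at 43.3, Mef2c, a factor that promotes hypertrophy, was at 38.8, and Runx2, the factor that drives hypertrophy and bone formation, was not well above background here, with 39.96 and 25.9 intensity units from its 2 probes. The brighter of these values lies in the range where some probes passed and some did not.

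Most markers of bone cells were not well above background, though most passed the laxer flag of a signal that is positive and significant. Of 8 osteoblast and osteocyte genes read, 3 were well above background, with a median percentile of 22.3. Bglap2, an osteocalcin gene, stood at 67.3, Mepe, a phosphoglycoprotein of osteocytes, at 41.2 and Sp7, the osteoblast factor osterix, at 35.1 with 48.0 intensity units. Phex, Sost, Dmp1 and Ifitm5 were not well above background, with 7.45 to 13.8 intensity units. Bglap was not read under that name.

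Fibroblast markers were bright in the same culture. All 18 were well above background, at a median percentile of 91.4, although 7 of them had a spot in a patch. Fn1 and Col1a2, the other chain of type I collagen, stood at ranks 12 and 33 and Vim (vimentin) at rank 124, while Postn (periostin) at percentile 66.2 and Dpt (dermatopontin) at 44.6 were the dimmest. Genes that cartilage cells also make, such as Fn1, Vim and Dcn, cannot separate the cell types. Thy1, a surface protein of fibroblasts, stood at 71.7, Pdgfra, a receptor of mesenchymal cells, at 76.5 and Fap, a surface protease of activated fibroblasts, at 66.8. Without spots in patches, the median percentile of the list was 96.6.

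Perichondrial markers were all detected but none was among the brightest. All 9 read were well above background, with percentiles from 36.4 to 80.2 and a median of 58.8. Thbs2, a thrombospondin, stood at 80.2, Prrx1, the limb mesenchyme factor whose promoter drives Cre in this study, at 78.1 and Col14a1, a fibril-associated collagen, at 69.8. The hedgehog effector gene Gli1 and the Wnt target gene Axin2 closed the list at 41.9 and 36.4. Col12a1 was not read under that name. In the list of tendon markers, 5 of 6 were well above background. Egr1, an immediate-early gene that many stimulated cells express, stood at 94.6, the tendon factor Scx at 88.1 and Thbs4 at 71.6. Tnmd, the mature tendon marker tenomodulin, was dim at 42.1 with 2 of its spots in a patch, and Kera was not well above background.

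Of 9 contractile and pericyte genes, 7 were well above background (66.8% of all named genes were), at a median percentile of 91.7. Tagln and Acta2, an actin-binding protein and the actin of smooth muscle and myofibroblasts, stood at 96.1 and 95.9, and the 10 spots of Acta2 read 18478 to 21757 intensity units. Cspg4, the proteoglycan NG2, stood at 93.1 and is expressed by chondrocytes as well as pericytes. Rgs5, a pericyte marker, and Myh11, the myosin of smooth muscle, were not well above background with 29.3 and 6.80 intensity units. For Mcam, at 92.3, the other probe read 8.69 intensity units and was not well above background.

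**Figure D4:**
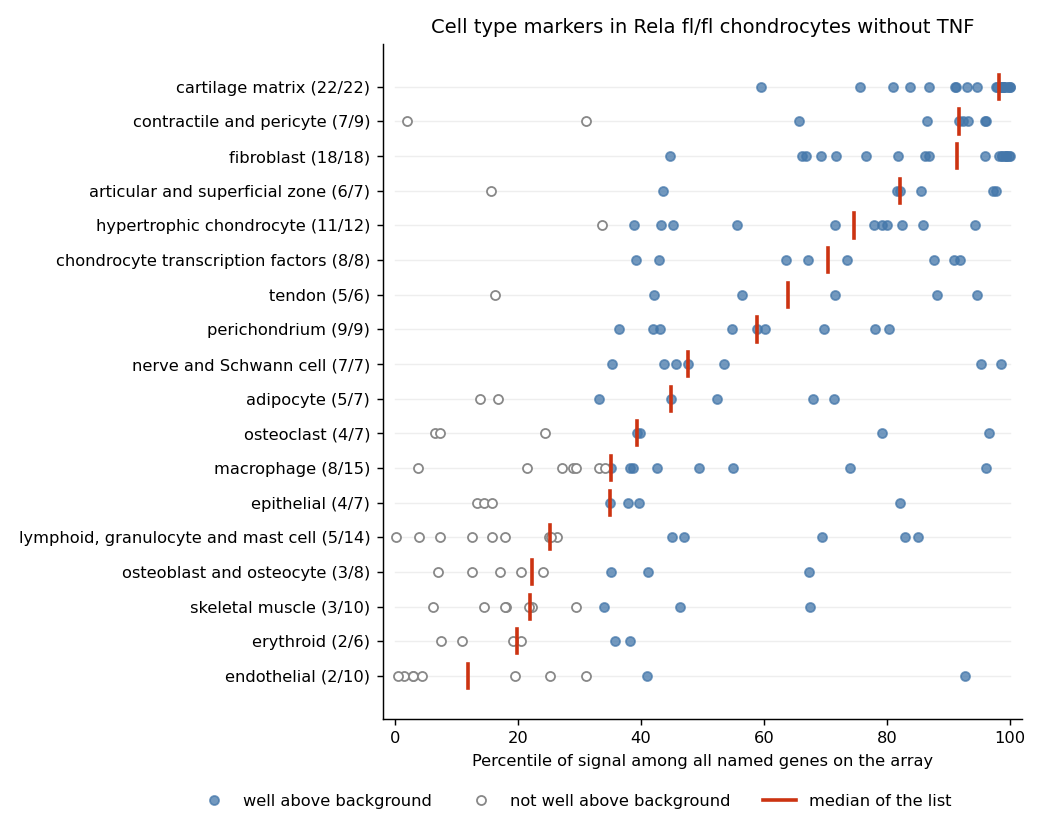
Percentile of signal among all named genes for each measured gene of the 18 cell type marker lists on the array of untreated Rela fl/fl cells, with blue points well above background, open points not, and a red line at the median of each list. The counts give genes well above background over genes measured; cartilage matrix has a median of 98.2 and endothelial markers of 11.9.

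Leukocyte markers gave few bright probes and a dim remainder. Of 15 macrophage genes read, 8 were well above background (53.3%, against 66.8% of all named genes), with a median percentile of 35.1. Itgam, an integrin chain of myeloid cells, stood at 96.1 with 21443 intensity units, but its 2 other probes read 337 and 33.6, and the last was not well above background. Csf1r followed at 73.9 and Lyz2, the macrophage lysozyme, at 55.0, where its spot lay in a patch and read 0.66 here against 0.13 to 0.25 on the other arrays. The remaining detected members were Cd14, C1qb, Tyrobp, Cx3cr1 and Adgre1, at percentiles from 49.3 down to 35.1. Adgre1, the F4/80 antigen, had 48.4 intensity units, and Cx3cr1, a chemokine receptor, was in a patch and well above background on this array only. The pan-leukocyte gene Ptprc (CD45) read 23.1 intensity units, the complement genes C1qa and C1qc read 7.07 and 10.096, and Fcgr1, Aif1, Mrc1 and Mpeg1 read 19.1, 24.8, 38.1 and 42.6. None of these 7 was well above background. The count of 8 became 14 of 15 with the laxer flag of a signal that is positive and significant, and 5 when every probe of a gene had to be well above background. The summed signal of the list was 39.99 here, 36.7 with TNF, and 44.9 and 36.1 on the arrays labelled cKO, and Itgam alone gave 35.1 of the 39.99. Cd68 was not read under that name.

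Other blood cells followed the same pattern. Of 14 genes of lymphocytes, granulocytes and mast cells, 5 were well above background (35.7%, against 66.8% of all named genes). Elane, the neutrophil elastase, stood at 85.0 with 7.64 here and 6.78 to 7.52 on the other arrays. Cd4, a co-receptor of T cells, stood at 82.9, with its other probe at 21.4 intensity units and not well above background, and Cd3e, a chain of the T cell receptor complex, stood at 69.4. Cd3d, another chain of that complex, and Mpo, the myeloperoxidase of granulocytes, had 188 and 152 intensity units with their spots in patches and were well above background on this array only. The neutrophil genes S100a8 and S100a9 read 7.503 and 6.42, the mast cell genes Cpa3 and Mcpt4 read 7.08 and 8.37, and the B cell genes Cd79a and Ms4a1 read 15.6 and 8.57 intensity units, all of them not well above background. Of 7 osteoclast genes, 4 were well above background, no more than the 66.8% of all named genes. Ctsk, a collagen-degrading cathepsin that fibroblasts and chondrocytes also make, stood at 96.5 with its spot in a patch, and Acp5, the tartrate-resistant phosphatase, at 79.2 with both of its probes detected. Ocstamp and Atp6v0d2 were dim at 39.9 and 39.3. The detected probe of Atp6v0d2 had its spot in a patch and was well above background on 2 arrays. It read 0.13 here against 0.02 to 0.07 on the other arrays, and the second probe, at 7.47 intensity units, was not well above background. Mmp9 and Calcr, the calcitonin receptor, read 7.495 and 7.39 intensity units and Dcstamp read 14.3, none well above background.

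Most vessel and red cell markers were not well above background. Of 10 endothelial genes, 2 were well above background. Kdr, the VEGF receptor, stood at 92.7 with 11143 intensity units from 1 probe, while its other probe read 12.04. Pecam1, an endothelial adhesion molecule, stood at 41.0, and the other 8, with Cdh5 (VE-cadherin) at 8.77 intensity units, Tie1 at 6.69 and Esam at 6.49, were not well above background. Of 6 erythroid genes, Slc4a1, the anion exchanger of red cells, and Hba-a1, an alpha globin, were detected at 69.5 and 52.7 intensity units. The beta globin genes Hbb-bs and Hbb-bt, the heme synthesis gene Alas2 and Epb42 were not, with 7.52 to 8.995.

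Skeletal muscle, fat and epithelial markers were detected in part. Of 10 skeletal muscle genes, 3 were well above background, led by the actin gene Acta1 at percentile 67.5, the fast troponin gene Tnnt3 at 46.3 and the embryonic myosin gene Myh3 at 34.0, whose brighter probe, with 42.02 intensity units, was well above background on this array only, whereas the myogenic factors Myod1, Myf5, Pax7 and Myog read 7.34 to 10.98 intensity units and were not. Of 7 fat cell genes, 5 were, a share near the 66.8% of all named genes. Fabp4, a fatty acid binding protein, stood at 71.3, Pparg, the master factor of fat cells, at 67.9 and Cfd, a serine protease secreted by fat cells, at 52.4. Adipoq, the hormone adiponectin, stood at 44.8 and Plin1, a coat protein of lipid droplets, at 33.2, with Cidec and Lep not well above background at 8.45 and 8.22 intensity units. Adipoq read 0.24 here and 0.19 with TNF, and 0.01 and 0.04 on the arrays labelled cKO, where it was not well above background without TNF. Cfd read 0.53 and 0.26 on the Rela fl/fl arrays against 0.03 and 0.05 on those labelled cKO, whereas Pparg read 1.89 and 1.52 against 3.46 and 3.63. The fat cell genes thus had no common order over the arrays, and of the 5 detected here 2 were well above background on all 4 arrays.

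All 7 nerve and Schwann cell genes were well above background, at a median percentile of 47.7, and 5 of them had every probe well above background. S100b, a calcium-binding protein of glia and also of chondrocytes, stood at 98.5 and Snap25, a protein of vesicle fusion, at 95.3. The Schwann cell factor gene Sox10 was dim at 47.7, as were Elavl4, a neuronal RNA-binding protein, at 53.5 and Mbp, a myelin protein, at 43.6. The other probe of Elavl4, at 8.08 intensity units, and those of Mbp, at 30.3 and 7.80, were not well above background. Of 7 epithelial genes, 4 were detected, no more than the share of all named genes (66.8%). Trp63, a factor of basal epithelium, stood at 82.1 with its spot in a patch, the keratin genes Krt5, Krt18 and Krt14 were at 39.6, 37.9 and 34.9, and Epcam, Cdh1 and Krt8 were not well above background with 8.17 to 8.36 intensity units.

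Of 22 genes of limb and axial position, 20 were well above background (against 66.8% of all named genes), with a median percentile of 61.3. Pitx1, a factor of the hindlimb, stood at 97.1, Prrx2, a factor of limb mesenchyme, at 92.1 and Hoxa11, a gene of the middle limb segment, at 87.0. Tbx4, of the hindlimb, stood at 76.4 and Tbx5, of the forelimb, at 66.2, so genes of both limbs were read. Hoxa13, of the hand and foot, read 0.76 here in a patch against 0.02 to 0.10 on the other arrays. Its other probe, outside patches, read 0.09 here and 0.07 to 0.08 on the other arrays and was well above background on all 4. Hoxd11 was dim at 33.6 with its spot in a patch, and Hoxc8 and Hoxd13 were not well above background with 25.1 and 20.3 intensity units.

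Genes of the cell cycle were read on both sides. All 18 proliferation genes were well above background at a median percentile of 81.5. Ccnd1, the G1 cyclin D1, stood at 96.2, the replication clamp gene Pcna at 92.7 and Birc5 (survivin) at 91.8, with Mki67, which encodes Ki-67, at 87.6. Tyms, the thymidylate synthase, and Aurkb, a mitotic kinase, closed the list at 48.7 and 36.2. All 7 cycle inhibitors were also well above background, at a median of 81.6. Cdkn1c (p57), an imprinted inhibitor of chondrocyte growth, stood at 98.4 with its spot in a patch, Cdkn1a (p21) at 94.3 and Cdkn2b (p15) at 88.8, and Cdkn2c (p18) and the tumour suppressor gene Trp53 were lowest at 76.6 and 53.7.

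Of 26 genes of the NF-κB and TNF pathway, 23 were well above background without added TNF (66.8% of all named genes were), at a median percentile of 61.8. Rela, the p65 subunit, stood at 95.1, Tnfrsf1a, the main TNF receptor, at 94.1 and the adaptor gene Traf2 at 88.5, though the other probe of Traf2 was dimmer by 7.27 on the log2 scale. The other subunits were dimmer, with Nfkb2 at 64.8, Relb at 64.8 and Nfkb1 at 52.6. Tnf, Il1b and Rel read 8.38, 8.07 and 6.81 intensity units, not well above background.

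Of 29 growth factor signalling genes, 27 were well above background (against 66.8% of all named genes), with a median percentile of 77.9. Ctgf (Ccn2), a matricellular protein of growth plate cartilage, stood at 99.4, and the FGF receptor genes Fgfr1 and Fgfr3, the latter a brake on chondrocyte proliferation, at 97.9 and 97.0. Fgfr1 read 36929 intensity units, with 4237 and 986 from its other probes, and Fgfr3 read 27247, with 2378 from its other probe. Igf2, an imprinted growth factor, stood at 95.2 and read 28.6 here, 21.5 with TNF, and 15 and 13.5 on the arrays labelled cKO. Igf2 was thus highest on this array. Pthlh, the signal that holds back hypertrophy, and Dkk1, a Wnt inhibitor, were not well above background with 9.10 and 7.52 intensity units.

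Set beside the other 3 arrays, the marker groups differed in how far their signals ranged. For the 13336 named genes detected on all 4 arrays by the probe that stands for the gene, the highest array exceeded the lowest by 0.26 (median, log2), and by more than 2-fold for 5.48%. Cartilage matrix genes had a median range of 0.76, and 20 of 22 were highest on the array described here, compared with 21.6% of all such genes. For 17 of the 22, both Rela fl/fl arrays were above both arrays labelled cKO, compared with 18.4% of all such genes. Matn1 read 90.4 here, 73.8 with TNF, and 24.98 and 32.4 on the arrays labelled cKO. Hypertrophic genes had a median range of 0.74, with both Rela fl/fl arrays below both arrays labelled cKO for 5 of 11, and proliferation genes had the same order for 15 of 18, compared with 24.7% of all such genes. For fibroblast genes, both Rela fl/fl arrays were above both arrays labelled cKO for 10 of 18, compared with 18.4% of all such genes. They were below them for 4 of 18, compared with 24.7% of all such genes. S100a4, a calcium-binding protein of fibroblasts and one of these 4, read 67.9 here, 76.6 with TNF, and 123 and 135 on the arrays labelled cKO, and Thy1, one of the 10, read 2.57 and 1.60 against 0.85 and 1.32. With 1 array per condition, a difference of genotype cannot be told apart from a difference between cultures.

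**Figure D5:**
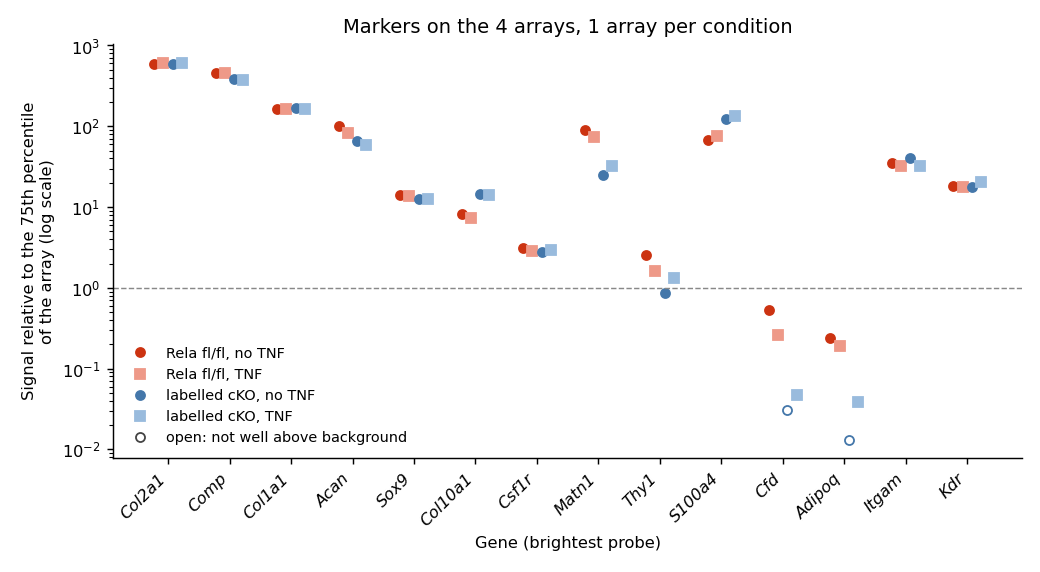
Signal relative to the 75th percentile of each array, on a log scale, for the 7 defining markers and 7 other markers on the 4 arrays, with 1 point per array and no replicate. The dashed line is the 75th percentile and open points are not well above background; Col2a1 lies at 584 to 610 on all 4 arrays, while Matn1 and Adipoq are higher on both Rela fl/fl arrays.

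Much of the detected signal had no gene name. Of the 100 brightest member probes, 63 could be named, and the other probes carry predicted or Ensembl transcripts and sequences that the gene table does not hold. Probes for regions of the genome, 16186 in all, were well above background in 32.1%, with 0 among the brightest 100 and 30 among the brightest 1000. Probes for RefSeq messenger RNAs were well above background in 66.6% of 26527.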

How the data were processed

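Total RNA of each culture was labelled with Cy3 and hybridised to a 1-colour Agilent mouse array. Per spot, the authors deposited the processed intensity from Agilent Feature Extraction 10.10.1.1, with background subtracted and trends over the array removed, beside its flags for outliers and for signals well above background. A value table deposited by the authors holds the same intensity multiplied by a single factor for each array. The factors were 1.83, 1.79, 1.77 and 1.78 and the column medians 82.4, 88.5, 74.2 and 69.4 (untreated Rela fl/fl, untreated cKO, treated Rela fl/fl, treated cKO). What the factors were set to is not given in the sources used here.

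On the array of untreated Rela fl/fl cells, 225 outlier spots were left out, log2 intensity was averaged over the spots of a probe, and the probe of highest signal stood for its gene. A gene was counted as detected when any of its probes was well above background. Ranks and percentiles run over named genes. For values across arrays only, signals were divided by the 75th percentile of the array (611, 633, 615 and 589 intensity units, in the order above). Accessions, stripped of versions, were named through a RefSeq gene table for GRCm38.p6 (26083 of 26536 NM accessions). The array files name build mm9, so no coordinates are given. A spot lay in a patch where 3 or more other spots within 5 rows and 2 columns exceeded their signal on every other array by 2-fold or more.

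The 28 gene lists, the members and the alternatives were chosen with earlier results of these data known. The text names the 7 defining markers, the 30 named genes of highest signal, the first 3 and last 2 of each list, and detected markers of other cell types. Some genes that this rule takes in are not reported here. Other genes were named after their values were seen. Alternatives were normexp (offset 50, on median intensity), the value table, other probe summaries, other flags, other scalings, outlier spots kept, patches left out and unnamed transcripts ranked too. Python 3.11.15, numpy 2.4.6, pandas 2.3.3, R 4.3.3 and limma 3.58.1 were used. Precision is limited by the single array.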

Additional observations from a re-analysis of the deposited data

How the results depend on the processing

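Each condition has 1 array, so no paired analysis was made and no test was run. The authors' value table, choosing a gene's probe by its mean on 4 arrays and keeping outlier spots changed none of the main counts or medians beyond the technical spread. With normexp the perichondrial median percentile was 57.0. With the mean over the probes of a gene, the fibroblast, perichondrial and macrophage medians were 93.4, 55.5 and 32.6. With patches left out, the cartilage matrix, fibroblast and perichondrial medians were 97.9, 96.6 and 59.7. With unnamed transcripts ranked too, 21588 were well above background, ribosomal proteins held 20 of the first 100 places, and the medians were 97.6 for cartilage matrix, 80.6 for hypertrophic, 92.3 for fibroblast, 68.9 for perichondrial and 44.4 for macrophage genes. With the laxer flag, the counts of detected genes were 14 for macrophage (8 before), 8 for lymphoid, granulocyte and mast cell (5), 6 for skeletal muscle (3), 5 for osteoblast and osteocyte (3) and 4 for endothelial genes (2). When a gene had to be well above background on all 4 arrays, fat cell genes fell from 5 to 2 and lymphoid, granulocyte and mast cell genes from 5 to 3. In an alternative chosen after seeing the data, when all probes had to be well above background, 5 macrophage genes and 1 endothelial gene were left. Of the first 100 genes, 93 remained with normexp, 88 without patches and 69 with the mean over probes. Among the results checked under other scalings, quantile normalization changed 2 and left 5 the same, and no scaling left 7 the same. Signals near 40 intensity units lie where the flag does not separate them.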

Other observations

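Further down the first 100 named genes, at ranks chosen for description after their values were seen, stood several secreted and vesicle proteins that belong to none of the lists. Penk, which encodes the opioid precursor proenkephalin, stood at rank 31 with 240455 intensity units from a single probe, and its range over the 4 arrays was 0.11 on the log2 scale. Cpe, an enzyme that trims such precursors, stood at rank 70. Mgp, the matrix Gla protein that restrains calcification, stood at rank 82 and Thbs1, a thrombospondin, at rank 92. The lysosomal genes Cd63 and Lamp1 stood at ranks 85 and 100.

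Iron and metal binding proteins were also within the first 100. Fth1, the ferritin heavy chain, stood at rank 44 and Mt1, a metallothionein, at rank 48. Ubb, a ubiquitin gene, stood at rank 64, and Mest, an imprinted gene, stood at rank 98. Beyond the first 30, further genes were represented by a probe far brighter than the next, as for Pbld1 at rank 47 and Chchd2 at rank 96, whose other probes read 7.75 and 16.3 intensity units, below the lowest signal marked well above background. Among the first 100, 59 genes had several probes and 15 of them had a gap above 3.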
